A study of Mus musculus with 167 samples.

Results

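The muscle miRNAs described here (myomiRs) were 10 mature arms, chosen by name from 1915 miRNAs in each count table: mmu-miR-1a-3p, mmu-miR-133a-3p, mmu-miR-133a-5p, mmu-miR-133b-3p, mmu-miR-206-3p, mmu-miR-208a-3p, mmu-miR-208a-5p, mmu-miR-208b-3p, mmu-miR-499-5p and mmu-miR-499-3p. They were followed in heart, lung, brain, white blood cells (WBC) and red blood cells (RBC) of irradiated mice and sham irradiated controls. The 2 strains were C3H (C3Hf/Sed/Kam), all female and sampled at month 4, and C57 (C57Bl/6), of both sexes and sampled at month 6, so strain and time cannot be told apart. Irradiated mice had received whole thorax lung irradiation (WTLI), which places both the lung and the heart in the field, whereas controls were handled without exposure.

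Small RNA was sequenced from 35 animals, each a replicate, to give 167 libraries. In heart and lung there were 7 irradiated and 8 sham C3H mice, and 5 irradiated and 15 sham C57 mice. The C57 irradiated group held 4 males and 1 female, and its controls held 8 males and 7 females. Sample names also carried the letter A or B, which the labels leave undefined. Tissue was taken after perfusion and homogenised whole, and blood was separated by centrifugation. C3H irradiated mice were 3 of letter A and 4 of letter B, and C3H controls were 4 of each. Totals ran from 1944992 to 4784251 counts in heart and from 2024219 to 4582208 in lung, so a floor of 3 counts stood between 0.627 and 1.54 RPM (the count scaled to reads per 1000000) in heart and between 0.655 and 1.48 RPM in lung.

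Striated muscle makes a small set of miRNAs in large amounts. One branch, miR-1, miR-133 and miR-206, is transcribed from its own clustered genes under muscle transcription factors, and miR-206 is known mainly from skeletal muscle. The other branch lies within introns of myosin heavy chain genes and is made together with its host: miR-208a in Myh6, the adult cardiac alpha-myosin of the mouse, miR-208b in Myh7, the beta-myosin of foetal heart and slow muscle, and miR-499 in Myh7b. A rise of beta- relative to alpha-myosin is a classical readout of the stressed rodent heart. In mice, cardiac muscle also extends along the pulmonary veins into the lung.

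The sequences below show how close the myosin-gene miRNAs are to each other, and how far from miR-206. They come from RefSeq and the coordinates are on GRCm38.p6. The seed, bases 2 to 8, is in capitals.
mmu-miR-208a-3p: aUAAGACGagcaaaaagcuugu
mmu-miR-208b-3p: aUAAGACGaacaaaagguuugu
mmu-miR-499-5p: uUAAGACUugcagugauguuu
mmu-miR-206-3p: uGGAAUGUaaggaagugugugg

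mmu-miR-208a-3p lies at chr14:54949072-54949093 on the minus strand, in an intron of Myh6. mmu-miR-208b-3p lies at chr14:54975710-54975731 on the same strand, in an intron of Myh7, and the mature arms are 26616 bases apart. The pair share their seed and differ at 3 of 22 positions counted from the 5′ end (G10A, A16G and C18U, with the base of mmu-miR-208a-3p first). mmu-miR-499-5p, in an intron of Myh7b at chr2:155622893-155622913 on the plus strand, shares bases 2 to 7 with both and differs from mmu-miR-208a-3p at 9 of 21 positions, 1 of them in the seed (G8U). mmu-miR-206-3p, at chr1:20679055-20679076 on the plus strand in an exon of the lincRNA Gm28653, differs from mmu-miR-208a-3p at 15 of 22 positions and at 6 in the seed. How reads that match more than 1 miRNA were counted is not stated, so the split of reads between miR-208a and miR-208b, and between miR-133a-3p and the near-identical miR-133b-3p, is uncertain to that extent.

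The 10 members took 5.08% to 29.9% of all counts in a heart library and 0.258% to 0.996% in a lung library. In sham hearts of both strains (n = 23), mmu-miR-1a-3p was the 2nd most abundant miRNA by its median of 237634 RPM. Well below it came mmu-miR-133a-3p at 7767 RPM, mmu-miR-208a-3p at 5921 RPM and mmu-miR-499-5p at 4954 RPM, whose ranges overlapped. mmu-miR-133a-5p, mmu-miR-208b-3p, mmu-miR-208a-5p and mmu-miR-133b-3p followed with medians of 79.5, 60.5, 51.3 and 23.8 RPM, and mmu-miR-499-3p had 3.96 RPM. mmu-miR-206-3p, the arm of skeletal muscle, had a median of 0.322 RPM, under the floor. The skeletal muscle arm was thus the 1 member not detectable above the floor in most sham hearts.

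In sham lung (n = 23), mmu-miR-1a-3p had a median of 4849 RPM, mmu-miR-133a-3p 75.6 RPM, mmu-miR-208a-3p 29.3 RPM, mmu-miR-208b-3p 9.75 RPM, mmu-miR-499-5p 2.28 RPM and mmu-miR-206-3p 1.45 RPM. From heart to lung the sham median of mmu-miR-208a-3p was 184-fold lower in C3H and 250-fold lower in C57, and that of mmu-miR-499-5p was 550-fold and 1887-fold lower. The Myh7 miRNA, mmu-miR-208b-3p, was 8.01-fold and 7.81-fold lower. In the other branch mmu-miR-1a-3p was 42.0-fold and 52.5-fold lower and mmu-miR-133a-3p 58.6-fold and 135-fold lower, so the branches did not separate by this measure. Of the other members in lung, mmu-miR-133a-5p, mmu-miR-133b-3p and mmu-miR-208a-5p had medians below 1 RPM. mmu-miR-499-3p had 0 counts in all 35 lung libraries, which allows up to 0.655 to 1.48 RPM per library. Such floors cover counting error only.

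**Figure D1:**
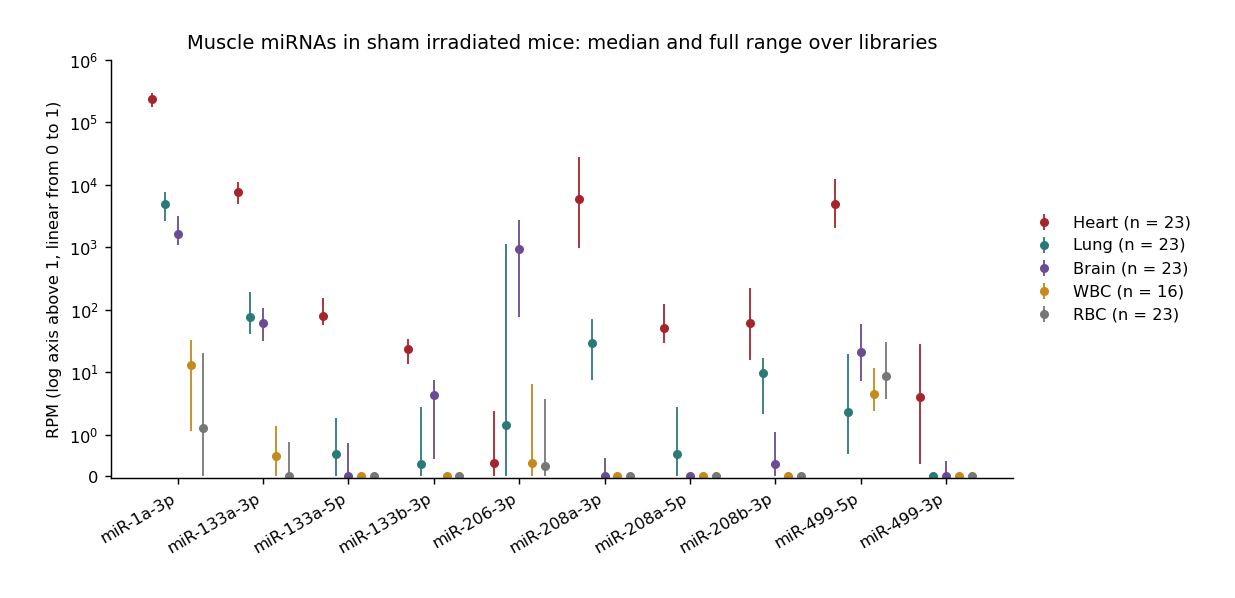
Level of each member in sham irradiated mice of both strains, in RPM on an axis that is logarithmic above 1, for heart, lung, brain, WBC and RBC. Points are medians and bars span the lowest to the highest library; in WBC and RBC both arms of miR-208a, miR-208b-3p and miR-499-3p sit at 0.

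In sham brain (n = 23), mmu-miR-1a-3p had 1643 RPM and mmu-miR-206-3p a median of 935 RPM with a range from 75.5 to 2730 RPM. mmu-miR-133a-3p had 60.2 RPM and mmu-miR-499-5p 20.7 RPM, whereas the median of mmu-miR-208a-3p was 0. WBC (n = 16) held mmu-miR-1a-3p at 13 RPM and mmu-miR-499-5p at 4.52 RPM. RBC (n = 23) held mmu-miR-499-5p at 8.60 RPM, above mmu-miR-1a-3p at 1.27 RPM. Both arms of miR-208a and mmu-miR-208b-3p had 0 counts in every sham library of WBC and RBC. The blood fractions were not cleanly separated by their markers, since 5 leukocyte miRNAs such as mmu-miR-223-3p summed to 15266 to 33447 RPM in sham WBC and 17656 to 45244 RPM in sham RBC. Brain, WBC and RBC had 433, 291 and 229 miRNAs to test, and 0% were called in either strain (limma, adjusted p under 0.05 and a log2 change of 1.17 or more in size, the fold minimum). Among the members tested, 5 in brain and 2 in each blood fraction, 0 were called, also with edgeR and DESeq2. Only mmu-miR-1a-3p in C57 brain, with a log2 change of -0.34, had an unadjusted p under 0.05 in limma (adjusted p = 0.320).

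The myosin-gene miRNAs were lower in irradiated C3H lung, with log2 changes larger than those of miR-1a and miR-133a. The difference itself did not pass, since the log2 ratio to mmu-miR-1a-3p changed by -0.58 for mmu-miR-208a-3p (adjusted p = 0.38) and by -0.53 for mmu-miR-499-5p (adjusted p = 0.21) in exact permutation tests over 7 and 8 mice. The filter on low counts passed 6 of the 10 members, and 3 of these 6 were called, all lower, where 9.71% of the 350 miRNAs tested were called in either direction and 3.43% were called lower. The 3 were mmu-miR-208a-3p, mmu-miR-208b-3p and mmu-miR-499-5p. The median log2 change of the 6 members was -1.13, against -0.08 for all miRNAs tested. By the adjusted p alone 5 of the 6 were lower, against 17.1% of all miRNAs that were lower.

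mmu-miR-208a-3p, the Myh6 miRNA, had 29.3, 42.5 and 71.2 RPM (lowest, median and highest of 8 sham libraries) and 9.12, 19.5 and 42.5 RPM in the 7 irradiated libraries, a difference of -1.42 ± 0.39 on the log2 scale (SE, adjusted p by limma = 0.0051). The groups overlapped at the upper end of the irradiated libraries, which was letter B. Within letter A the irradiated libraries had 9.12 to 12.5 RPM against 29.3 to 71.2 RPM in controls, and within letter B 19.5 to 42.5 RPM against 42.0 to 69.6 RPM. mmu-miR-208b-3p, the Myh7 miRNA, went from 9.75, 12.7 and 16.8 RPM to 2.59, 5.35 and 16.7 RPM, a change of -1.38 ± 0.34 (adjusted p = 0.0019). Here 2 irradiated libraries, both of letter B, lay inside the control range at 11.3 and 16.7 RPM.

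mmu-miR-499-5p gave the clearest separation, with 9.78, 12.6 and 19.8 RPM in controls and 2.94, 8.05 and 8.87 RPM after irradiation, so that no irradiated library reached the lowest control. Its log2 change was -1.46 ± 0.23 (adjusted p = 1.2e-05), at 8 to 34 counts per irradiated library and 32 to 73 counts per control. Among the other branch, mmu-miR-133a-3p, which is made from the same primary transcripts as miR-1, fell by 0.87 on the log2 scale (adjusted p = 0.00095), from a median of 126 to 98.3 RPM. mmu-miR-1a-3p, which promotes muscle differentiation, fell by 0.60 (adjusted p = 0.025), from 5414 to 3935 RPM. Both changes were under the fold minimum.

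Of the 4 members that did not pass the filter, mmu-miR-208a-5p, the other arm of the Myh6 miRNA, had 0 to 3 counts in the 7 irradiated C3H lungs and 2 to 9 counts in the controls. It was lower when no filter was applied (limma adjusted p = 0.0055). No fold is given, since the irradiated libraries lay at or under the floor of 3 counts, and nothing is read from that result. mmu-miR-133a-5p had 0 to 5 and 1 to 6 counts, and mmu-miR-133b-3p 0 to 2 and 0 to 3 counts. mmu-miR-499-3p had none.

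**Figure D2:**
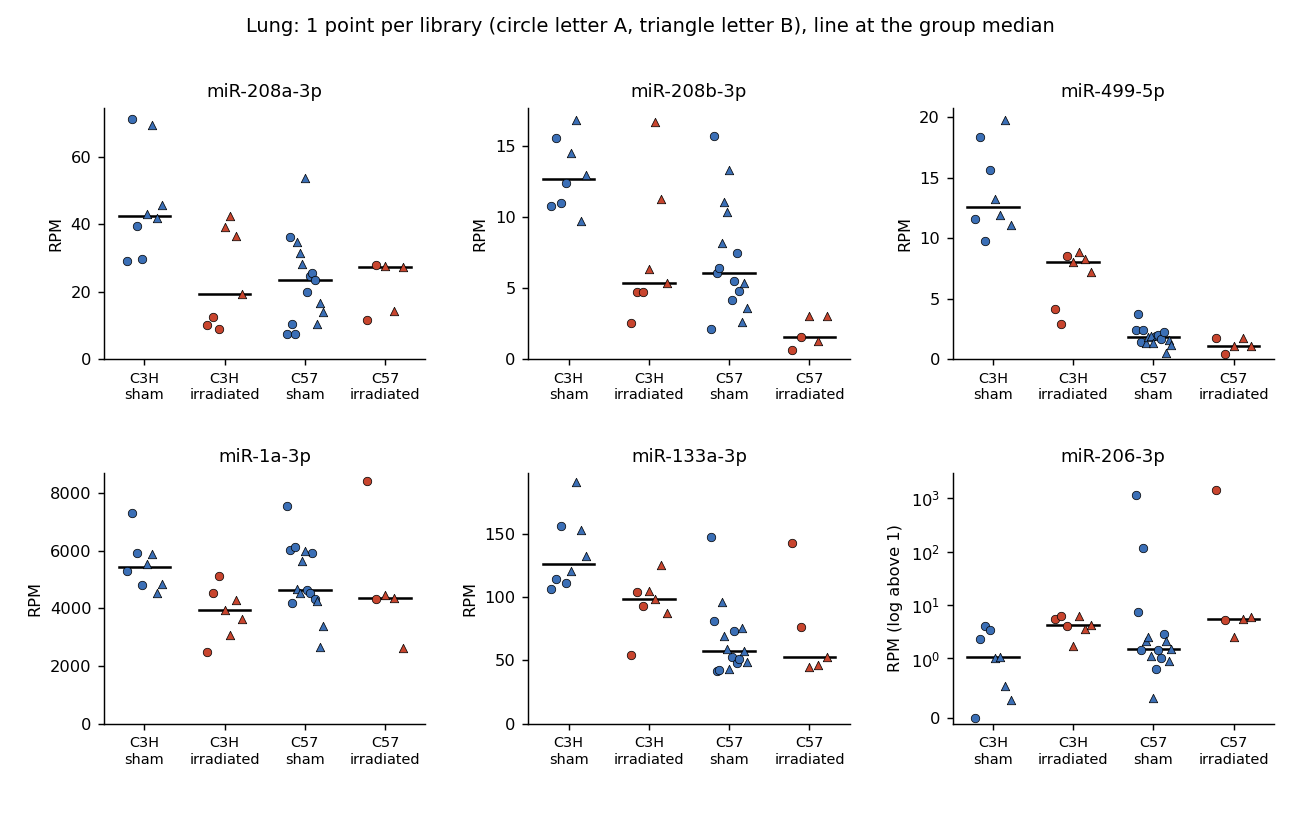
RPM of 6 members in each lung library, on linear axes except for miR-206-3p (logarithmic above 1), by strain and treatment with the median as a line. For miR-499-5p all 7 irradiated C3H libraries lie below all 8 controls, and for miR-206-3p 3 C57 libraries lie between 119 and 1391 RPM.

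The calls in C3H lung depended on scaling. Library size alone, without quantile normalisation, shifted the median log2 change of all miRNAs to 0.27 in C3H lung, 0.12 in C57 lung, -0.17 in C3H heart and 0.08 in C57 heart. On that scale 0 of the 3 met the fold minimum in C3H lung, with log2 changes of -1.11 for mmu-miR-208a-3p, -0.996 for mmu-miR-208b-3p and -1.04 for mmu-miR-499-5p, each still with an adjusted p under 0.05. With letter B alone, mmu-miR-499-5p was called (log2 change -1.32) and mmu-miR-208a-3p was not (-0.93, adjusted p = 0.13). Nor was mmu-miR-208b-3p called there. Over all alternatives run, mmu-miR-208a-3p ran from -2.14 to -0.93 (adjusted p 0.0015 to 0.13) and mmu-miR-208b-3p from -1.84 to -0.996 (adjusted p 0.00046 to 0.081). mmu-miR-499-5p ran from -1.70 to -1.04 (adjusted p 8.2e-08 to 0.0069). The endothelial miRNAs (2 markers, miR-126a arms) summed to 297017 to 390147 RPM in irradiated C3H lung and 380361 to 444378 RPM in controls, with 1 of 2 lower by the adjusted p alone. The smooth muscle markers (2, miR-143 and miR-145a) summed to 34632 to 61719 RPM and 43612 to 53754 RPM, with 0 of 2 passing. The ciliated epithelium markers (5) summed to 2960 to 6186 RPM and 3408 to 5242 RPM, with 1 of 5 called higher, and the epithelial markers (5) to 8381 to 22738 RPM and 12588 to 22592 RPM, with 1 of 5 lower by the adjusted p alone. The part of these lists in the changes of the muscle miRNAs was not tested. In whole tissue, fewer cells of a type and less RNA per cell cannot be told apart.

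In C57 lung mmu-miR-208b-3p was lower after irradiation and mmu-miR-208a-3p was not called. Of 6 members tested, 1 was called, where 6.00% of 350 miRNAs were in either direction and 2.29% were lower. By the adjusted p alone 2 were lower, against 7.14% of all miRNAs that were lower. The second of them, mmu-miR-499-5p, had under 10 counts in every C57 lung and was tested because it was higher in C3H lung, so nothing is read from this count. mmu-miR-208b-3p had 2.12, 6.04 and 15.7 RPM in 15 controls and 0.674, 1.56 and 3.08 RPM in 5 irradiated lungs, a log2 change of -2.18 ± 0.47 (limma adjusted p = 0.0012). The counts were low, at 7 to 48 per control library and 3 to 14 per irradiated library, and the 2 groups overlapped between 2.12 and 3.08 RPM. Over the alternatives run it ranged from -2.58 to -1.81 (adjusted p 1.1e-05 to 0.060).

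mmu-miR-208a-3p had 7.41, 23.6 and 53.9 RPM in C57 controls and 11.7, 27.3 and 27.8 RPM after irradiation, a log2 change of -0.20 (95% interval -0.99 to 0.59; adjusted p = 0.75). mmu-miR-499-5p, at 2 to 9 counts in every C57 lung, had a log2 change of -1.15 (adjusted p = 0.040), just under the fold minimum of 1.17. It was called with sex as a covariate and not passed by the adjusted p with TMM scaling (log2 change -0.71, adjusted p = 0.16), edgeR (-0.64) or DESeq2 (-0.65). Its range over the alternatives was -1.72 to -0.51 (adjusted p 0.013 to 0.43). mmu-miR-1a-3p and mmu-miR-133a-3p had log2 changes of 0.00 each, with 95% intervals from -0.42 to 0.42 and from -0.41 to 0.42. Beside these results, the smooth muscle markers summed to 45600 to 57178 RPM in irradiated C57 lung and 42870 to 75535 RPM in controls, with 1 of 2 lower by the adjusted p alone. The brain markers (2, miR-124 and miR-9) summed to 34.7 to 383 RPM and 14.1 to 115 RPM, with 1 of 2 called higher, and 1 of 5 ciliated epithelium markers was higher by the adjusted p alone. The part of these markers in the C57 changes was not tested.

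Between the strains the changes were tested by their interaction. In lung 0 of 6 members were called (limma; also 0 by edgeR and DESeq2), with 3 at an unadjusted p under 0.05, against 0.286% of all miRNAs. The C3H change minus the C57 change was 0.80 for mmu-miR-208b-3p (95% interval -0.38 to 1.97), -1.22 for mmu-miR-208a-3p (-2.33 to -0.10; adjusted p = 0.33) and -0.88 for mmu-miR-133a-3p (-1.46 to -0.30; adjusted p = 0.28). A difference between the strains was thus not called for any member.

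A few C57 lungs held far more mmu-miR-206-3p than the rest. In 3 of them, all male and of letter A, it had 1391 RPM (irradiated replicate 1, 6189 counts), 1120 RPM (sham replicate 1, 3702 counts) and 119 RPM (sham replicate 4, 240 counts), whereas all other lung libraries had at most 7.44 RPM. Other members were high in irradiated replicate 1 and sham replicate 1 too. These 2 libraries had the highest C57 values of mmu-miR-1a-3p (8404 and 7540 RPM) and mmu-miR-133a-3p (143 and 148 RPM), and 16 and 9 counts of mmu-miR-133b-3p, which had at most 3 in any other lung.

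Sham replicates 1 and 4 also had the lowest mmu-miR-208a-3p of the C57 controls, at 7.56 and 7.41 RPM. Their leukocyte markers summed to 8303 and 9748 RPM, where the other 13 controls had at most 5454 RPM, and their endothelial markers to 212137 and 264323 RPM, where the others had at least 325812 RPM. The part of these markers in the values was not tested. Without the 3 libraries mmu-miR-208b-3p was still called lower in C57 lung (log2 change -2.05, adjusted p = 0.0017).

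With all libraries the log2 change of mmu-miR-206-3p was 1.23 in C3H (adjusted p = 0.57) and 1.89 in C57 (adjusted p = 0.19). Without those 3 libraries, a choice made after seeing them, it was 1.24 in C3H (adjusted p = 0.021, past both criteria) and 1.11 in C57 (adjusted p = 0.047, under the fold minimum). In C3H the values were 0, 1.05 and 3.97 RPM in controls and 1.73, 4.28 and 6.26 RPM after irradiation, from 0 to 13 and 6 to 24 counts. Since so few counts stood in the controls, it passed the filter on low counts mainly through libraries where it was high, and nothing is read from that call.

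**Figure D3:**
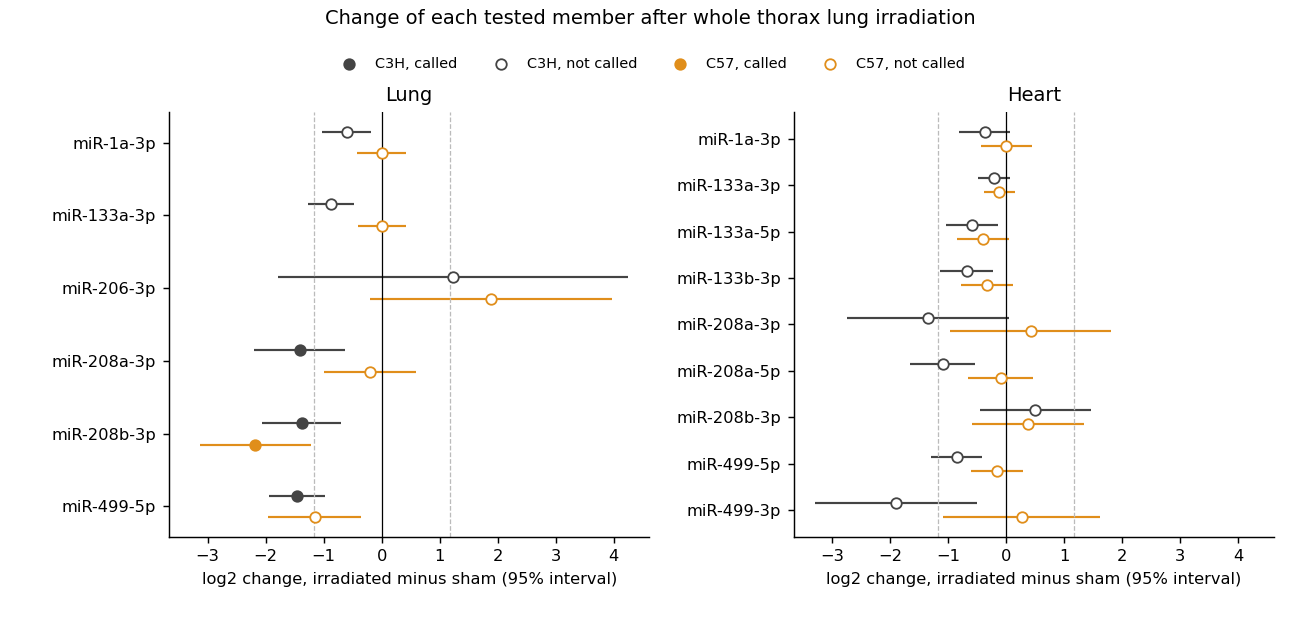
Log2 change after irradiation of each tested member in lung and heart, by strain, with 95% intervals from limma. Filled points met both the adjusted p and the fold minimum (dashed lines, at 1.17 on either side of 0): 3 in C3H lung, 1 in C57 lung and 0 in heart.

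Sham heart libraries fell into separate levels of several members, from both branches, by letter in C3H and by sex in C57, which bears on each heart result. In sham C3H hearts mmu-miR-208a-3p had 13533 to 28318 RPM in the 4 libraries of letter A and 1474 to 2126 RPM in the 4 of letter B. In sham C57 hearts it had 5921 to 19938 RPM in 8 males and 970 to 2386 RPM in 7 females. mmu-miR-133a-3p followed the same order without overlap, at 8268 to 11134 RPM in C3H letter A and 5769 to 6536 RPM in letter B, and at 7767 to 11134 RPM in C57 males and 4973 to 6156 RPM in females. mmu-miR-1a-3p did not and had 175321 to 223187 RPM in C3H letter A and 231528 to 276898 RPM in letter B. The leukocyte markers moved with the same split, at 1655 to 10253 RPM in C3H letter A against 1065 to 1582 RPM in letter B, and at 1672 to 2603 RPM in C57 males against 986 to 1592 RPM in females. The smooth muscle markers had 54266 to 77645 RPM in letter A and 37073 to 48548 RPM in letter B, and 40601 to 57782 RPM in C57 males and 32259 to 40925 RPM in females. Their part in the split was not tested.

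Between letters in sham C3H heart (a comparison added after the levels were seen), 2 of 9 members tested were called, mmu-miR-208a-3p with a log2 difference, B minus A, of -3.05 (adjusted p = 0.014) and mmu-miR-499-3p with -2.34 (adjusted p = 0.021), where 12% of 341 miRNAs were called in either direction and 7.62% were lower in B. mmu-miR-499-3p had 2 to 11 counts in letter B and 40 to 96 in letter A, so the size of its difference is not read. In sham C57 heart 0 of 9 members and 0% of all miRNAs were called between letters, with 1 member at an unadjusted p under 0.05. In lung the letters called 0 of 6 members and 0% of 380 miRNAs in both strains, with 0 members in C3H and 1 in C57 at an unadjusted p under 0.05. TMM scaling gave the same counts of members called.

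Sham C57 females differed from sham C57 males in 3 of 10 members in heart, where 10.1% of 367 miRNAs were called in either direction and 6.27% were lower in females. The log2 difference, female minus male, was -2.51 for mmu-miR-208a-3p (adjusted p = 0.0013), -1.89 for mmu-miR-208b-3p (adjusted p = 0.00066) and -2.45 for mmu-miR-499-3p (adjusted p = 0.0037). mmu-miR-499-3p had 1 to 7 counts in females and 10 to 40 in males, so the size of its difference is not read. The fit held a group of 1 library, the irradiated C57 female. This loosened the filter, so that mmu-miR-206-3p was tested too. In lung 0 of 7 members were called between the sexes (3 at an unadjusted p under 0.05), against 2.27% of 397 miRNAs.

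Between sham C57 females and sham C3H females, 3 of 10 members were called in heart, all lower in C57, where 11.4% of miRNAs were called in either direction and 6.81% were lower: mmu-miR-208a-3p (-1.73), mmu-miR-208b-3p (-1.50) and mmu-miR-499-3p (-2.25). This rested on the letter, since 0 were called against C3H letter B alone and 4 against letter A alone. In lung 3 of 7 were called, all lower in C57, against 5.54% of miRNAs in either direction and 3.78% lower. mmu-miR-499-5p had the largest of these, a log2 difference of -3.06 (adjusted p = 2.4e-09), which was -2.96 against letter A alone and -3.13 against letter B alone. The others were mmu-miR-208b-3p (-1.38, adjusted p = 0.0026) and mmu-miR-133a-3p (-1.203, adjusted p = 5.6e-05). In lung mmu-miR-499-5p had 2 to 8 counts in sham C57 females and 32 to 73 in sham C3H females. It passed the filter mainly through C3H, so nothing is read from the size or rank of its difference. In heart mmu-miR-499-3p had 1 to 7 counts in sham C57 females, so nothing is read from its difference either. Strain and month cannot be told apart in these differences.

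In C3H heart 1 arm each of the Myh6 and Myh7b miRNAs was lower after irradiation by the adjusted p alone, and in the limma fit with letters pooled no member met both criteria. Of 9 members tested, 0 were called by limma (5 at an unadjusted p under 0.05, and 1, mmu-miR-499-3p, called by TMM scaling, by edgeR and by DESeq2), where 6.73% of 312 miRNAs were called. By the adjusted p alone 3 were lower, against 6.41% of all miRNAs that were lower: mmu-miR-208a-5p (log2 change -1.10, adjusted p = 0.0055), mmu-miR-499-5p (-0.85, adjusted p = 0.0061) and mmu-miR-133b-3p (-0.68, adjusted p = 0.028). The median of the 9 was -0.68, against -0.03 for all miRNAs.

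With a term for letter in C3H and sex in C57, added after the split was seen, mmu-miR-208a-3p (-1.22, adjusted p = 0.011) and mmu-miR-499-3p (-1.79, adjusted p = 0.00028) were called, where 9.62% of miRNAs were in either direction and 3.85% were lower. On this fit 6 of 9 members were lower by the adjusted p alone, against 16.3% of all miRNAs that were lower, and mmu-miR-208b-3p had a log2 change of 0.54 (adjusted p = 0.19). mmu-miR-499-3p had 1 to 8 counts in irradiated C3H hearts other than replicate 1, which had 39. Its controls had 40 to 96 counts in letter A and 2 to 11 in letter B. It was well counted mainly where it was high, so nothing is read from its calls in C3H heart. Without the term mmu-miR-208a-3p had -1.35 (adjusted p = 0.17), mmu-miR-499-3p -1.89 (adjusted p = 0.053) and mmu-miR-208b-3p 0.50 (adjusted p = 0.44). Over the alternatives run the adjusted p of mmu-miR-208a-3p ran from 0.0037 to 0.89 and that of mmu-miR-499-3p from 0.00013 to 0.52, with log2 changes of -2.10 to -0.38 and -2.27 to -1.40.

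By library, mmu-miR-208a-3p had 992, 3081 and 15824 RPM in the 3 irradiated C3H hearts of letter A, where the controls had 13533 to 28318 RPM, so 1 of the 3 reached the control range. In letter B it had 1305 to 1514 RPM against 1474 to 2126 RPM. mmu-miR-499-5p had 1241 to 6386 RPM against 8441 to 12585 RPM in letter A and 2743 to 3412 RPM against 3784 to 5440 RPM in letter B, with no overlap in either. mmu-miR-208b-3p had 56.2, 106 and 396 RPM against 143 to 222 RPM in letter A. In letter B it had 95.7 to 176 RPM against 32.7 to 60.5 RPM, with every irradiated library above every control.

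mmu-miR-1a-3p and mmu-miR-133a-3p had log2 changes of -0.37 and -0.21 in C3H heart, and neither passed the adjusted p. Quantile normalisation holds the most abundant miRNAs in place, and mmu-miR-1a-3p, at up to 28.9% of a heart library, was 1 of them. Its normalised value was the same in 34 of the 35 heart libraries and lower only in C3H irradiated replicate 3, so the change of -0.37 came from that library. With TMM scaling its change was -0.33 (adjusted p = 0.26), and mmu-miR-133a-3p had -0.47 (adjusted p = 0.0074). One irradiated library of letter A, replicate 3, had 45683 RPM of mmu-miR-1a-3p, where the other irradiated C3H hearts had 140454 RPM or more. Without it mmu-miR-133b-3p no longer passed the adjusted p (log2 change -0.40, adjusted p = 0.11), and mmu-miR-499-5p (-0.69) and mmu-miR-208a-5p (-0.91) still did.

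In C57 heart 0 of 9 members were called (limma; 0 at an unadjusted p under 0.05, 0 called by edgeR and DESeq2, each with 1 at an unadjusted p under 0.05), where 0.962% of 312 miRNAs were. mmu-miR-208a-3p had 970, 5921 and 19938 RPM in controls and 2569, 6493 and 10211 RPM after irradiation, a log2 change of 0.42 (95% interval -0.962 to 1.803). mmu-miR-208b-3p had 15.9, 47.2 and 209 RPM and 40.9, 68.9 and 153 RPM, a change of 0.38 (-0.59 to 1.35). mmu-miR-499-5p changed by -0.16 (-0.61 to 0.29). These signs changed for mmu-miR-208a-3p and mmu-miR-208b-3p with the term for sex (-0.25 and -0.12), and the irradiated C57 group was 4 males to 1 female.

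The strain by irradiation term called 0 of 9 members in heart (limma, edgeR and DESeq2), where 3, 1 and 1 had an unadjusted p under 0.05, and 0% of 312 miRNAs by limma. The C3H change minus the C57 change was -1.77 for mmu-miR-208a-3p (95% interval -3.74 to 0.20), -2.16 for mmu-miR-499-3p (-4.10 to -0.22; adjusted p = 0.28) and 0.12 for mmu-miR-208b-3p (-1.24 to 1.49).

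**Figure D4:**
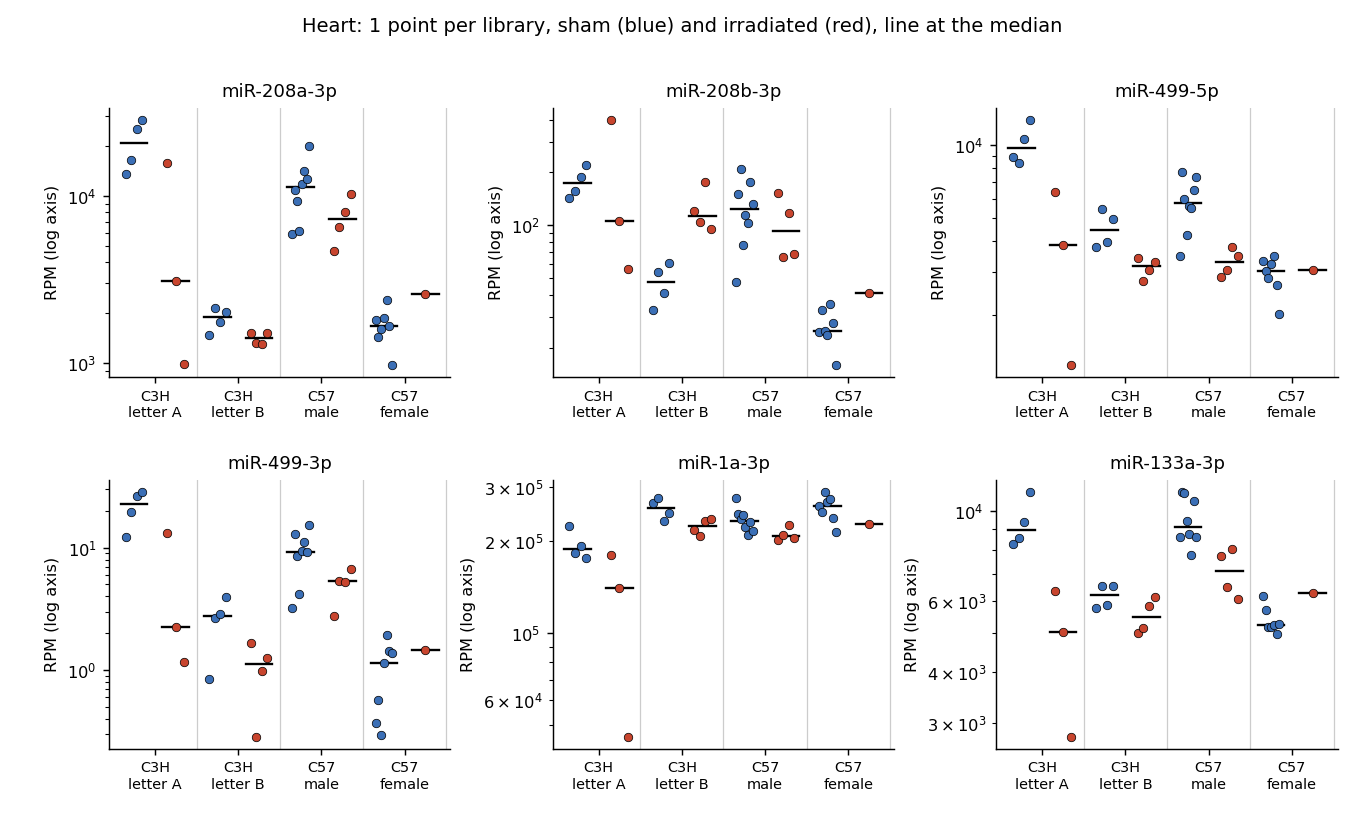
RPM of 6 members in each heart library on logarithmic axes, with C3H divided by letter and C57 by sex, controls in blue, irradiated in red and the median as a line. For miR-208a-3p the sham C3H libraries of letter A (13533 to 28318 RPM) lie above those of letter B (1474 to 2126 RPM), and sham C57 males lie above sham females.

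A ratio of 2 miRNAs in 1 library does not depend on how libraries are scaled, so 6 pairs were set against treatment in heart and lung of each strain, by a two-sided exact permutation test with adjustment over these 24 tests. Of these, 5 passed an adjusted p of 0.05. The Myh7 miRNA rose relative to the Myh6 miRNA in C3H heart and fell relative to it in C57 lung.

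In C3H heart, mmu-miR-208b-3p amounted to 0.758% to 1.05% of mmu-miR-208a-3p in sham libraries of letter A and 2.51% to 5.67% after irradiation. In letter B it was 2.22% to 3.01% in controls and 6.37% to 13.5% after irradiation. Every irradiated library thus stood above every control of its letter. The ratio was 4.002-fold higher over all C3H hearts (log2 difference 2.001, exact permutation p = 0.00093, adjusted p = 0.0075; 7 against 8 mice), and 3.74-fold higher when libraries were rearranged within letter only (adjusted p = 0.0049). It passed on leaving out each irradiated library, at log2 differences of 1.805 to 2.209. Against mmu-miR-499-5p, mmu-miR-208b-3p was 3.01-fold higher (log2 difference 1.59, exact permutation p = 0.00031, the smallest that this design can give, adjusted p = 0.0037).

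In C57 heart the same ratio was 0.660% to 2.30% in controls and 0.675% to 3.29% after irradiation, a log2 difference of 0.09 that did not pass (exact permutation p = 0.77). In both strains mmu-miR-208b-3p was a larger fraction of mmu-miR-208a-3p in lung than in heart, with 21.8% to 41.7% in sham C3H lung and 20.5% to 86.7% in sham C57 lung.

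In C57 lung the ratio fell to 5.60% to 11.2% after irradiation, below all 15 controls. This was 0.275-fold of the control level (log2 difference -1.86, exact permutation p = 0.00013, the smallest that this design can give, adjusted p = 0.0031; 5 against 15 mice), at 3 to 14 counts of mmu-miR-208b-3p per irradiated library. Within sex it was -1.97 (adjusted p = 0.0049), and leaving out each irradiated library gave -1.96 to -1.72. The highest control, 86.7%, was sham replicate 4 at 13 against 15 counts. Without that library and the other 2 high in mmu-miR-206-3p the log2 difference was -1.66 (adjusted p = 0.0075, exact permutation test). In C3H lung, where both miRNAs were lower, the ratio was 16.2% to 51.6% after irradiation, a log2 difference of 0.11 (exact permutation p = 0.65).

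**Figure D5:**
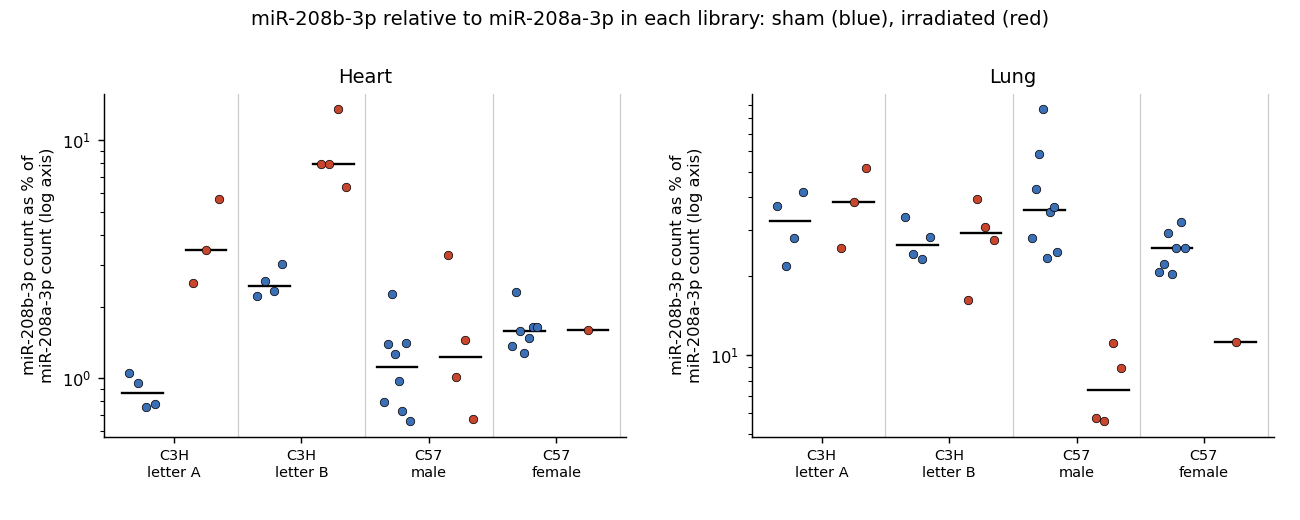
Count of miR-208b-3p as a percent of that of miR-208a-3p in each library of heart and lung, on logarithmic axes, with C3H divided by letter and C57 by sex, controls in blue, irradiated in red and the median as a line. In C3H heart the irradiated libraries lie above the controls of each letter, and in C57 lung all 5 irradiated libraries (5.60% to 11.2%) lie below all controls (20.5% to 86.7%).

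Of the ratios to mmu-miR-1a-3p, mmu-miR-206-3p was higher in C3H lung (adjusted p = 0.0093 by the exact permutation test), at 0 to 13 counts of mmu-miR-206-3p in controls and 6 to 24 after irradiation. No fold is given, since control libraries lay under the floor. It also passed in C57 heart (adjusted p = 0.028 by the same exact test), where it had 0 to 8 counts and most libraries were at or near the floor. That call held on leaving out 1 of the 5 irradiated libraries in turn and was lost on leaving out each of the other 4 (adjusted p 0.0093 to 0.10, exact permutation test). mmu-miR-499-5p relative to mmu-miR-1a-3p in C3H heart had a log2 difference of -0.64 (adjusted p = 0.33, exact permutation test), which within letter was -0.55 (adjusted p = 0.0078, exact permutation test).

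Lung and heart came from the same animals, and their changes were compared in one fit. The lung change of mmu-miR-208b-3p was below its heart change in C57, by -2.85 on the log2 scale (SE 0.82, limma adjusted p = 0.023), the 1 member of 10 called where 3.21% of 374 miRNAs were in either direction and 1.87% were lower. With library size alone it was -2.31 and not called (adjusted p = 0.097). In C3H 0 of 10 members were called (limma; 2 at an unadjusted p under 0.05), against 5.35% of all miRNAs. There mmu-miR-208b-3p had -1.92 (adjusted p = 0.057), and was called with TMM scaling (-2.02, adjusted p = 0.011) and in the fit that paired tissues by animal (-1.92, adjusted p = 0.043).

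As a description without a test, the myosin-gene arms summed to 9.77% to 22.1% of the miR-1, miR-133 and miR-206 arms in sham C3H hearts of letter A and 4.74% to 12.2% in irradiated ones. In letter B they were 1.96% to 2.79% and 1.93% to 2.29%. In C57 heart they were 1.38% to 12.3% in controls and 2.44% to 6.60% after irradiation. In lung the range was 0.986% to 1.64% in sham and 0.429% to 2.16% in irradiated C3H mice, and 0.137% to 1.15% and 0.142% to 1.197% in C57 mice.

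None of the other muscle miRNAs on a list of 12, such as the 378a arms, was called in heart (6 tested) or lung (4 tested) in either strain by limma, and 0 passed the adjusted p alone. Of all miRNAs 6.73% and 0.962% were called in C3H and C57 heart and 9.71% and 6.00% in lung, so a list of this size would hold few calls at that share. At an unadjusted p under 0.05 there were 3 in C3H heart, 1 in C57 lung and 0 in the others. The median log2 change of the tested ones was -0.46 in C3H heart and 0.17 in C3H lung. Of 16 miRNAs known from cardiac remodelling, all tested in heart, 2 were higher and 2 lower in irradiated C3H heart, where 6.73% of all miRNAs were called in either direction. This list was chosen with earlier results of these data known. Nothing is therefore read from its counts in heart or lung against the shares of all miRNAs. mmu-miR-21a-5p, which is linked to fibrosis, had a log2 change of 1.33 (adjusted p = 1.7e-06) and mmu-miR-34a-5p, a p53 target, 1.27 (adjusted p = 1.5e-07). mmu-miR-150-5p, abundant in lymphocytes, had -1.63 (adjusted p = 1.4e-09) and mmu-miR-199b-5p -1.26 (adjusted p = 0.027).

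In C3H lung, mmu-miR-21a-5p (1.501, adjusted p = 0.0051) and mmu-miR-34a-5p (1.57, adjusted p = 6.4e-10) were called higher among 15 tested, where 9.71% of all miRNAs were called in either direction. In C57 0 of the list were called by limma in heart or lung (4 and 6 at an unadjusted p under 0.05), against 0.962% of all miRNAs called in heart and 6.00% in lung. In the C57 mice mmu-miR-21a-5p had 1.08 in heart (adjusted p = 0.00020) and mmu-miR-34a-5p 1.17 in lung (adjusted p = 4.1e-07), just under the fold minimum. Lower by the adjusted p alone were mmu-miR-150-5p in C57 heart (-0.85, adjusted p = 0.00031) and mmu-miR-30c-5p in lung of C57 (-0.68, adjusted p = 0.0011) and of C3H (-1.13, adjusted p = 3.9e-07). In C3H lung mmu-miR-29b-3p was too (-0.57, adjusted p = 0.0054). Also higher by the adjusted p alone were mmu-miR-132-3p in C3H heart (1.10) and C3H lung (0.86), and mmu-miR-212-3p in heart of C3H (0.91) and C57 (1.02). The same held for mmu-miR-27b-3p in lung of C3H (0.50) and C57 (0.54). In C3H heart a list of 5 ciliated epithelium miRNAs (miR-34b, miR-34c and miR-449a) summed to 61.9 to 200.2 RPM in controls and 184 to 724 RPM after irradiation, with 4 of 4 tested called higher. The leukocyte list (5) summed to 833 to 2656 RPM after irradiation, with 1 of 5 called lower. The epithelial list of miR-200 family members summed to 87.4 to 942 RPM and 30.7 to 237 RPM, with 0 of 5 passing. The erythrocyte list (4) was at 608 to 2740 RPM in controls and 331 to 1722 RPM after irradiation, with 2 of 4 lower by the adjusted p alone and 1 of these called. The smooth muscle list (2) was at 37073 to 77645 RPM in controls and 40061 to 68169 RPM after irradiation, with 1 of 2 lower by the adjusted p alone. The part of these lists in the heart results was not tested.

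Over 35 heart libraries, centred on the means of the 4 groups, the log2 RPM of mmu-miR-301a-3p (r = 0.98), mmu-miR-24-2-5p (0.97), mmu-miR-32-5p (0.97), mmu-miR-223-3p (0.96) and mmu-miR-338-3p (0.96) followed mmu-miR-208a-3p most closely among non-members. Among the members, mmu-miR-499-3p had r = 0.95, mmu-miR-499-5p 0.91, mmu-miR-208b-3p 0.89 and mmu-miR-208a-5p 0.86, and among the other branch mmu-miR-133a-3p had 0.78, mmu-miR-133b-3p 0.38, mmu-miR-133a-5p 0.28 and mmu-miR-1a-3p -0.17. These are descriptions across libraries that differ by letter and sex. In lung the closest among miRNAs that were no members were mmu-miR-190a-5p (0.86), mmu-miR-143-5p (0.80), mmu-miR-130a-3p (0.74), mmu-miR-497a-5p (0.71) and mmu-miR-151-5p (0.71). There mmu-miR-208b-3p had 0.79 and mmu-miR-499-5p 0.16.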

How the data were processed

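The authors sequenced QIAseq small RNA libraries and deposited raw read counts per mature miRNA for each tissue, made with the mm10 reference according to the submitters' notes. How multiply matching reads and molecular identifiers were treated is not given in the sources used here. Counts were divided by the library total to give RPM. Differential levels were tested with limma 3.58.1 (voom, quantile normalisation, as in the study's methods) after filterByExpr (minimum count 10, minimum total 15), in 1 fit per tissue with 4 groups, with Benjamini-Hochberg adjustment over all miRNAs tested. Called means an adjusted p under 0.05 and at least 2.25-fold. edgeR 4.0.16, DESeq2 1.42.0, TMM and library size scaling, other filters, covariates and leave-outs were alternatives. Ratios used log2 counts with a prior count of 0.5 and an exact permutation test. No 2 libraries of the same tissue and group held the same counts. Lung and heart changes were compared in 1 joint fit, without and with the animal as a block. Members, gene lists and named miRNAs (all members, list miRNAs that passed the adjusted p and the 5 miRNAs most like mmu-miR-208a-3p) were chosen with earlier results of these data known. The tests were checked on simulated data.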

Additional observations from a re-analysis of the deposited data

Results flagged for a closer look

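One library was far from the rest of its group in 7 of 45 groups of 4 to 10 libraries tested by Dixon's criterion, where chance gives about 1 in 20. In C3H irradiated heart, replicate 3 was the lowest in mmu-miR-1a-3p (45683 RPM), mmu-miR-133a-3p (2774 RPM), mmu-miR-133a-5p (11.9 RPM) and mmu-miR-133b-3p (2.56 RPM), so 4 of the 7 came from this library. In the same group, replicate 1 was the highest in mmu-miR-208a-3p (15824 RPM). In C3H irradiated lung, replicate 1 was the lowest in mmu-miR-133a-3p (54.4 RPM). In C57 irradiated lung, replicate 1 was the highest in mmu-miR-206-3p (1391 RPM).

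The change of mmu-miR-208b-3p after irradiation differed between lung and heart of C57 mice by -2.85 on the log2 scale, by the test of the difference itself (limma).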

How the results depend on the processing

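No call changed direction under any alternative run. The counts of members that follow are given without the share of all miRNAs called under the same setting. They show how the calls depend on the setting, and nothing more is read from them. The number of members called in C3H heart, 0 as reported, was 3 without the fold minimum, 1 with TMM, edgeR or DESeq2, 2 with letter A alone, 2 within letter and sex and 2 with TMM added. It ran from 0 to 2 on leaving out irradiated libraries (2 without replicate 1) and from 0 to 2 on leaving out controls (2 without sham replicate 5 or 7, 1 without 6). In C3H lung, 3 as reported, it was 5 without the fold minimum, 0 with library size alone and 1 with letter B alone. With the stricter filter it was 1, but mmu-miR-208b-3p and mmu-miR-499-5p were then not tested. It stayed at 3 on leaving out each C3H library in turn and was 4 without the 3 libraries highest in mmu-miR-206-3p. In C57 lung, 1 as reported, it was 2 without the fold minimum, 0 with letter A alone, 2 with sex as a covariate and 2 within sex. It was 2 without the 3 libraries highest in mmu-miR-206-3p. With the stricter filter it was 0, but mmu-miR-208b-3p was then not tested. It ran from 1 to 2 on the leave-outs (2 without irradiated replicate 1 or 4, or sham replicate 5, 7, 13 or 15). For sham females between strains, 3 as reported in each tissue, heart had 0 against C3H letter B alone and lung had 5 without the fold minimum. For lung against heart, C3H had 1 with TMM and 1 with the animal as a replicate block (0 as reported), and C57 had 0 with library size alone (1 as reported). Of the 24 ratio tests, 5 as reported passed, 0 with letter A alone and 0 with letter B alone, where the smallest p that the exact permutation test can give was 0.017 to 0.057, and 4 to 5 on the leave-outs. The cause of the other differences was not tested. The joint term for letter and sex, the split of sham C3H females by letter, and the leave-outs of controls and of the 3 mmu-miR-206-3p libraries were chosen after seeing the data.

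Lung and heart libraries of the same number came from the same animal, so the block pairs them, with an estimated correlation of 0.057, and it changed no other call. Depth limits mmu-miR-208b-3p and mmu-miR-499-5p in C57 lung, at 3 to 14 and 2 to 8 counts per irradiated library. It also limits mmu-miR-499-3p in heart, at 1 to 39 counts per irradiated C3H library and 1 to 7 per sham C57 female.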
